A study of Homo sapiens with 9 samples.

Results

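Nucleic acid sensing was examined through 10 genes in SKMEL28 cells, an established human melanoma line. The genes were MB21D1, which encodes cGAS, TMEM173, which encodes STING, DDX58, which encodes RIG-I, IFIH1, which encodes MDA5, MAVS, TBK1, IRF3, TREX1, TLR3 and EIF2AK2, which encodes PKR. They were named as core genes of the pathway, by a rule that uses no measured value, although earlier results of these data were known when they were named. All 10 were found among the 48162 genes of the table, and all 10 were among the 15776 genes that passed the filter on low counts.

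The study asked how the checkpoint kinase ATR acts in cells with a knockdown of p16, the cell cycle inhibitor encoded by CDKN2A, and bulk RNA sequencing gave 3 groups of 3 libraries. The shCont cells carried a lentiviral short hairpin against GFP, the shp16 cells a hairpin against p16, and the shp16+shATR cells a hairpin against p16 together with a hairpin against ATR. All cells grew in DMEM with serum and were selected for 3 days in puromycin at 1 ug/ml. Which of the study's ATR hairpins was sequenced is not given in the sources used here, and no group carried the ATR hairpin alone. As described, only the shp16+shATR cells carried a second hairpin, so ATR knockdown cannot be told apart from a second hairpin as such. The libraries are described as technical replicates of a single experiment, so every p-value below measures only the spread between these libraries.

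Cells detect misplaced DNA and RNA as a sign of infection or damage. Cytosolic double-stranded DNA is bound by cGAS, which makes the second messenger cGAMP for STING, and the exonuclease TREX1 degrades such DNA. Cytosolic RNA is bound by RIG-I and MDA5, which signal through MAVS on mitochondria. TLR3 reads double-stranded RNA in endosomes, and PKR binds it and phosphorylates eIF2alpha to slow translation. STING, MAVS and TLR3 lead to the kinase TBK1 and the transcription factor IRF3, which switches on type I interferon, and interferon in turn induces many of the sensors. The cGAS and STING branch is often silenced in melanoma lines.

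Interferon acts on its target genes through a response element in their promoters, and the promoter windows of 3 sensors are shown here because they hold its core letters. Windows from 250 bases before to 50 bases after the start site were taken from RefSeq on GRCh38.p14 for the 7 members with an entry, which leaves out MB21D1, TMEM173 and IRF3. The motif searched was GAAANNGAAA on both strands, read as TTTCNNTTTC on the other strand. It was found in 3 of the 7 windows and in 1255 of all 35116 windows of this length, which is 3.57%. A match is a description of the letters only. In the sequences below, printed 5′ to 3′ along the gene's strand, the matches are in capitals.
IFIH1, chr2:162318635-162318934, minus strand: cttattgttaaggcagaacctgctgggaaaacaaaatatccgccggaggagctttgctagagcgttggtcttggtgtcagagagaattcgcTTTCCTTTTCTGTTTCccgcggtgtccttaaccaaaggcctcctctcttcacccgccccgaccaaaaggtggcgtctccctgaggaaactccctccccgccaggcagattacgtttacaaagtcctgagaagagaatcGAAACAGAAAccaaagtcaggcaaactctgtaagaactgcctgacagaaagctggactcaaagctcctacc
TLR3, chr4:186068906-186069205, plus strand: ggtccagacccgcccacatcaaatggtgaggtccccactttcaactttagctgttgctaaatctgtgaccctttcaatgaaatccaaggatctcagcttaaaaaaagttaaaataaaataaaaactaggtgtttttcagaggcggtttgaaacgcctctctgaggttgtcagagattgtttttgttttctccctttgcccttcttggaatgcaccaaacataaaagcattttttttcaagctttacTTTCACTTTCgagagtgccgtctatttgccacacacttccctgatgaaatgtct
EIF2AK2, chr2:37156931-37157230, minus strand: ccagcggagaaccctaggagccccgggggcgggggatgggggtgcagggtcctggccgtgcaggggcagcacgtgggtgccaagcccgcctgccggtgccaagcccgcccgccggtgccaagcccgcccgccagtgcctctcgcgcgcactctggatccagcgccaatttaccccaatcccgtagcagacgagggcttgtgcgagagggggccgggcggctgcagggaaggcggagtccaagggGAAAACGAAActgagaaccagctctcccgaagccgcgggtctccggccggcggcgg
IFIH1 held 3 matches, of which the first 2 overlap and lie on the opposite strand, beginning 159 and 153 bases before the start site, and the third begins 21 bases before it. The single match of TLR3 lies on the opposite strand and begins 4 bases before the start site, and that of EIF2AK2 begins 6 bases before it. The windows of DDX58, MAVS, TBK1 and TREX1 held none.

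The libraries totalled between 17314662 and 23588174 counts. shCont replicate 1 stood apart from the rest. Its genes differed from the mean of the other shCont libraries by a median of 0.398 on the log2 scale, against 0.0930 to 0.255 for the other 8 libraries, and it also went against its label in part. A different measure, the mean chi-square of counts per gene, also set shp16 replicate 1 apart from its group. This was 43.0 and 42.1 against the other shp16 libraries, which had 1.93 between them. For shCont replicate 1 it was 72.5 and 85.1 against the other shCont libraries. shp16 replicate 1 was the highest shp16 library for MAVS and EIF2AK2. ATR was at 45.9 CPM (counts scaled to a common library size with edgeR's TMM factors) in shCont replicate 1, near the 39.9 to 41.0 of the shp16+shATR libraries, whereas the other shCont libraries stood at 93.5 and 96.4 and the shp16 libraries at 93.5, 83.4 and 85.6. Against shp16, ATR was lower in shp16+shATR by a log2 fold change of −1.12 (SE 0.220, adjusted p = 0.0128, edgeR's quasi-likelihood test with Benjamini-Hochberg adjustment), a call that held in 14 of 19 alternative settings and was lost without shp16 replicate 1 or any shp16+shATR library (adjusted p from 0.0554 to 0.0707). CDKN2A was at 162, 112 and 103 CPM in shCont and at 78.1, 93.5 and 99.9 in shp16, which did not overlap but did not pass the test (log2 fold change −0.48, SE 0.163, adjusted p = 0.0723). It was at 82.6, 90 and 82.4 CPM in shp16+shATR, where it was called lower than in shCont (−0.57, adjusted p = 0.0263). Without shCont replicate 1 these differences were −0.26 (adjusted p = 0.0681) and −0.35 (adjusted p = 0.0154). For this reason the members' values are given with and without shCont replicate 1. Markers of the melanocyte lineage (MITF, PMEL, MLANA, TYR, DCT, SOX10 and S100B) were all present, with a summed level between 2528 and 5414 FPKM. Of these, S100B was called lower in shp16 than in shCont (−0.68, adjusted p = 0.0130) and higher in shp16+shATR than in shp16 (0.67, adjusted p = 0.0254). Of 5 leukocyte markers, PTPRC and CD3E were at 0 in all 9 libraries, and the list summed to at most 0.660 FPKM. The 4 markers of other cell types with values summed to 0.171 to 0.321 FPKM in shCont, 1.44 to 1.91 in shp16 and 0.974 to 1.91 in shp16+shATR, mainly through the keratin KRT14, and their part in the results was not tested.

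All 10 sensors were transcribed in these melanoma cells, over a wide range. Levels of different genes are compared in FPKM, which divides by gene length. In shCont, MAVS was highest at 38.8 ± 3.73 FPKM (SD, n = 3), near the 90.3rd percentile of the genes tested over all libraries. IRF3 at 24.8 ± 6.55 and TBK1 at 22.7 ± 3.63 followed, and their libraries overlapped. EIF2AK2 came next at 13 ± 2.28.
The DNA branch lay below these, with TMEM173 at 6.48 ± 0.369 FPKM, TREX1 at 6.40 ± 2.27 and MB21D1 at 5.58 ± 0.148. TMEM173 overlapped TREX1, and TREX1 overlapped MB21D1. The helicases and TLR3 were lowest, with IFIH1 at 4.42 ± 0.882, DDX58 at 2.06 ± 0.249 and TLR3 at 1.24 ± 0.446 FPKM, and no library of one overlapped the next. TLR3 was at the 21.6th percentile. The order was nearly the same in the other groups. TBK1 stood above IRF3 without overlap in shp16 and in shp16+shATR, and in shp16+shATR IFIH1 and MB21D1 overlapped, as did EIF2AK2 and TMEM173.

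**Figure D1:**
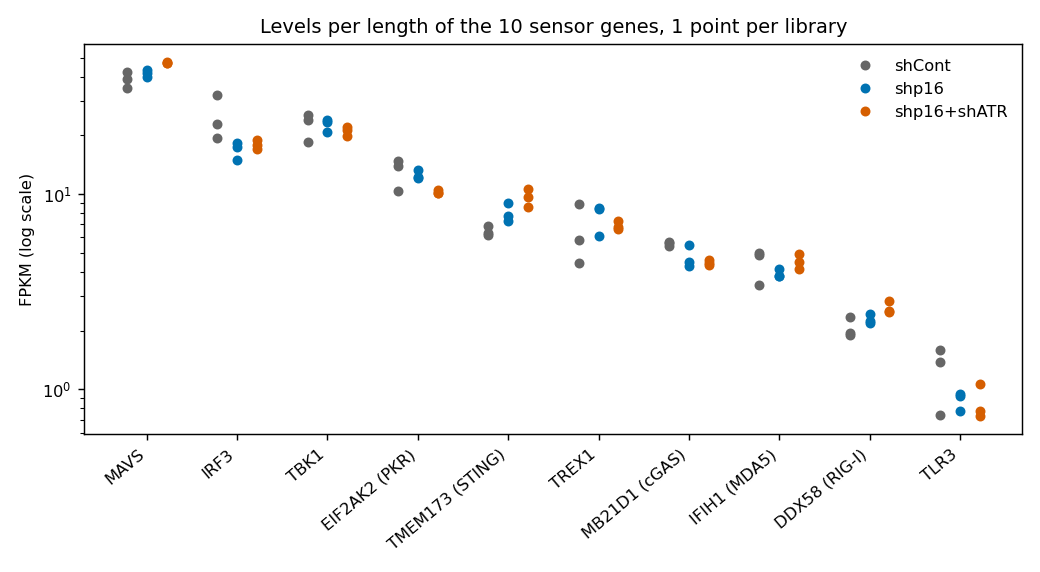
FPKM (log scale) of the 10 sensor genes, ordered by their mean in shCont, with 1 point per library and 1 colour per group. MAVS is highest and TLR3 lowest in all groups, and TMEM173 lies at 6.21 to 6.90 FPKM in shCont and at 8.64 to 10.7 in shp16+shATR.

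In the DNA branch, TMEM173 had a higher mean level in shp16 than in shCont, and a higher one still in shp16+shATR. STING, its product, relays cGAMP to TBK1. The gene (ENSG00000184584) lies on the minus strand at chr5:138855119-138862520 in the deposited table, whose positions differ from GRCh38 for all 10 members and whose build the files do not name. TMEM173 was at 23.0, 19.2 and 20.1 CPM in shCont, at 24.8, 28.0 and 24.2 in shp16, and at 34.1, 30.5 and 28.1 in shp16+shATR. Every shp16 library was above every shCont library, and every shp16+shATR library was above every shp16 library, although the nearest, at 28.0 and 28.1 CPM, were almost level and overlapped in FPKM (8.98 and 8.64). Between shp16+shATR and shCont TMEM173 rose 1.49-fold (log2 fold change 0.57, SE 0.123, 95% interval 0.31 to 0.84, adjusted p = 0.00583, edgeR). It was the only member called in that comparison, in which 23.6% of all genes tested were called, 10.9% higher and 12.7% lower. The single steps did not pass the test, with a log2 fold change of 0.31 (95% interval 0.04 to 0.57, adjusted p = 0.120) for shp16 against shCont and 0.27 (95% interval 0.002 to 0.53, adjusted p = 0.247) for shp16+shATR against shp16. The comparisons share libraries and are not independent of each other. Without shCont replicate 1 the step from shCont to shp16 was 0.38 with an adjusted p of 0.0187, and the step from shp16 to shp16+shATR 0.27 with an adjusted p of 0.0564. In bulk RNA a higher level cannot be told apart from a larger share of cells that express the gene.

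MB21D1, the gene of the DNA sensor that makes cGAMP, went the other way. It was at 18.9, 17.2 and 17.1 CPM in shCont, at 15.3, 17.0 and 13.3 in shp16, and at 13.7, 13.8 and 14.9 in shp16+shATR. All shCont libraries were above all libraries of both knockdown groups, although the nearest, at 17.1 and 17.0 CPM, were almost level and overlapped in FPKM. The log2 fold change was −0.22 (95% interval −0.50 to 0.05, adjusted p = 0.256) for shp16 and −0.33 (95% interval −0.60 to −0.05, adjusted p = 0.0795) for shp16+shATR, each against shCont, and neither passed the test. Leaving out shCont replicate 1, the highest MB21D1 library, gave −0.18 (adjusted p = 0.288, edgeR) and −0.28 (adjusted p = 0.0855, edgeR), both nearer to no difference. The sensor and its adaptor thus had differences of opposite sign in the same libraries. MB21D1 overlaps DDX43 in the deposited positions, but DDX43 had only 21 counts over all libraries against 2878 for MB21D1.

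TREX1, which degrades cytosolic DNA, was the member that depended most on shCont replicate 1. It was at 20.4, 12.4 and 9.69 CPM in shCont, at 14.3, 18.2 and 17.9 in shp16, and at 14.5, 15.8 and 15.2 in shp16+shATR. shCont replicate 1 was the highest of all 9 libraries and shCont replicate 3 the lowest. With all libraries the log2 fold change of shp16 against shCont was 0.24 (95% interval −0.25 to 0.73, adjusted p = 0.509). Without shCont replicate 1 it was 0.60 (SE 0.140, adjusted p = 0.00868), and that of shp16+shATR against shCont was 0.45 (adjusted p = 0.0273) in place of 0.09 (adjusted p = 0.802). TREX1 shares 671 of its 2600 bases with ATRIP on the same strand. ATRIP, whose product is the partner of ATR, was at 16.4, 12.6 and 12.2 CPM in shCont, 14.5, 11.3 and 12.9 in shp16 and at most 12.4 in shp16+shATR, and it was called in no comparison. How the counting divided reads between these genes is not given in the sources used here, so the TREX1 values are uncertain to that extent.

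**Figure D2:**
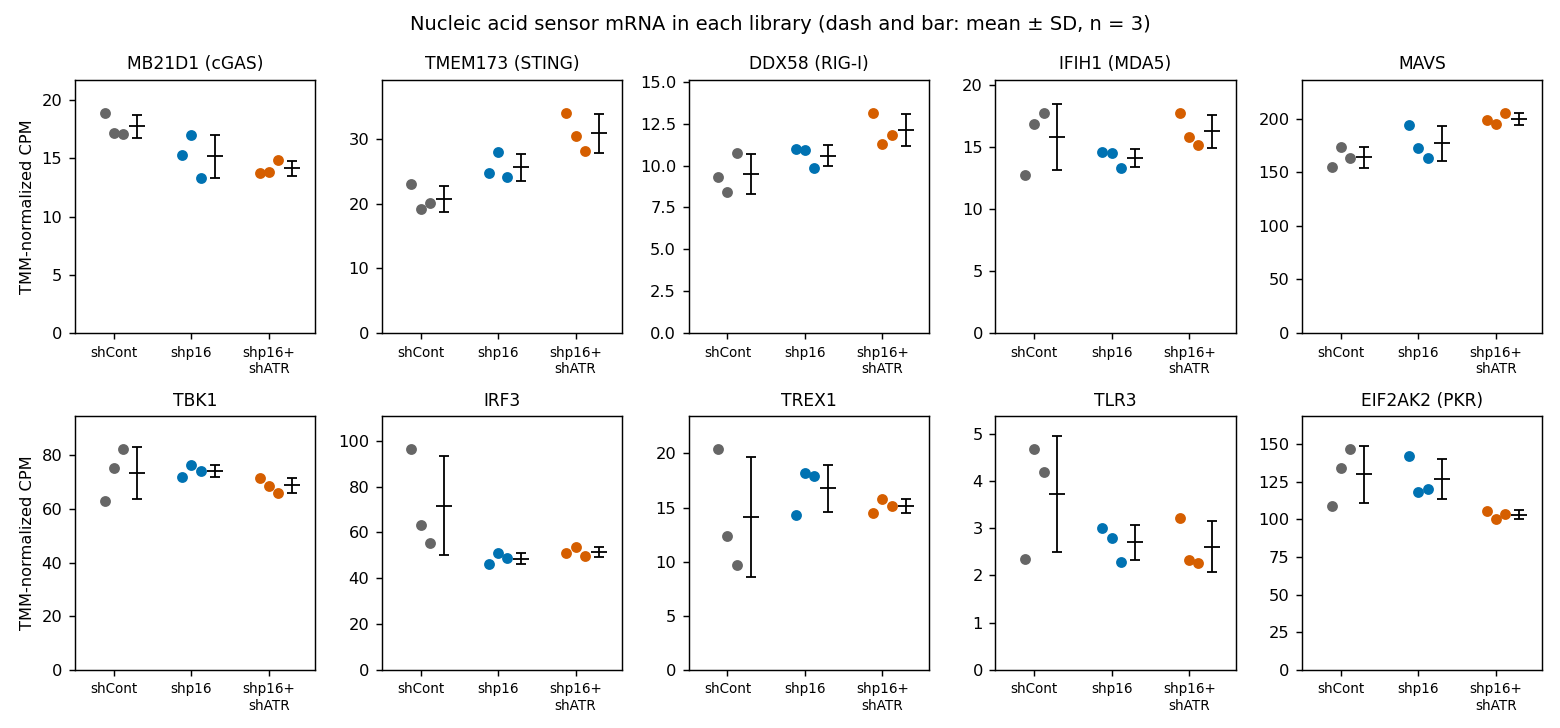
TMM-normalized CPM of each of the 10 genes in the 9 libraries, from replicate 1 to 3 (a to c for shp16+shATR) from left to right within a group, with the mean and SD (n = 3) beside the points; each axis starts at 0. TMEM173 steps up from 19.2 to 23.0 CPM in shCont to 28.1 to 34.1 in shp16+shATR, and shCont replicate 1 lies apart from its group in IRF3, TREX1 and TLR3.

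Among the cytosolic RNA sensors, no member passed the test in any comparison of all 9 libraries. DDX58, the gene of RIG-I, was at 9.32, 8.42 and 10.7 CPM in shCont, 11, 10.9 and 9.85 in shp16, and 13.1, 11.3 and 11.8 in shp16+shATR. All shp16+shATR libraries were above all others, and the log2 fold change against shCont was 0.35 (95% interval 0.05 to 0.65, adjusted p = 0.0900). In the fit without shCont replicate 1 it was 0.33 (adjusted p = 0.0859, edgeR). IFIH1, the gene of MDA5, was at 12.8, 16.9 and 17.8 CPM in shCont, 14.6, 14.5 and 13.3 in shp16, and 17.8, 15.8 and 15.2 in shp16+shATR. Its shp16+shATR libraries were above its shp16 libraries, with a log2 fold change of 0.20 (95% interval −0.11 to 0.51, adjusted p = 0.491), and overlapped shCont. Its log2 fold change of shp16 against shCont was −0.16 (adjusted p = 0.5), and −0.30 (adjusted p = 0.0549) without shCont replicate 1, which was its lowest library. Both RNA helicases therefore lay higher in shp16+shATR than in shp16 in every library, as did 17.6% of all genes tested. Neither passed the test, and both intervals held 0 (for DDX58 −0.11 to 0.49, adjusted p = 0.494, edgeR).

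MAVS, the mitochondrial adaptor that both helicases use, was at 155, 173 and 164 CPM in shCont, 195, 173 and 164 in shp16, and 199, 195 and 206 in shp16+shATR. All shp16+shATR libraries were above those of the other groups, although the nearest, at 195.1 CPM and 194.6 in shp16 replicate 1, were almost level. In FPKM these groups did not overlap either (46.7 and 43.1 at the nearest). Against shCont the log2 fold change was 0.29 (95% interval 0.06 to 0.51, adjusted p = 0.0649), and it passed the test in 6 of 19 alternative settings, among them the fit without shCont replicate 1 (0.24, adjusted p = 0.0487). At this abundance, with 10155 counts over the shCont libraries, counting error is small beside the spread between libraries.

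TLR3, the endosomal receptor for double-stranded RNA, was the rarest member, with 44 to 91 counts per library. It was at 2.34, 4.67 and 4.20 CPM in shCont, 3.01, 2.80 and 2.29 in shp16, and 3.23, 2.34 and 2.25 in shp16+shATR. shCont replicates 2 and 3 were above all other libraries, while shCont replicate 1 lay among those of the knockdown groups. The log2 fold change against shCont was −0.46 (95% interval −1.06 to 0.13, adjusted p = 0.289) for shp16 and −0.52 (95% interval −1.12 to 0.08, adjusted p = 0.201) for shp16+shATR. Leaving out shCont replicate 1 gave −0.72 (adjusted p = 0.0320) and −0.78 (adjusted p = 0.0181).

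EIF2AK2, the gene of the translation-blocking kinase PKR, was lower in the presence of the ATR hairpin. It was at 109, 134 and 147 CPM in shCont, 142, 118 and 120.1 in shp16, and 106, 100.3 and 104 in shp16+shATR. All shp16+shATR libraries were below all libraries of both other groups, and shCont replicate 1 was the nearest to them, with an overlap in FPKM (10.4 against 10.5). The log2 fold change of shp16+shATR was −0.30 against shp16 (95% interval −0.57 to −0.02, adjusted p = 0.210) and −0.33 against shCont (95% interval −0.61 to −0.06, adjusted p = 0.0776), and neither passed the test. When shCont replicate 1 was left out the same comparisons gave −0.30 (SE 0.0794, adjusted p = 0.0210) and −0.45 (SE 0.0879, adjusted p = 0.00205), and both passed. Of the 19 alternative settings, only 2 passed against shp16 and 1 against shCont, and adjusted p-values reached 0.468 and 0.218. Dropping single libraries gave log2 fold changes between −0.35 and −0.21 against shp16, and between −0.45 and −0.24 against shCont. EIF2AK2 shares 35 bases with GPATCH11 on the opposite strand, which was lower in shp16 than in shCont (log2 fold change −0.41, adjusted p = 0.0276, edgeR) and was not called in the comparisons with shp16+shATR. IFIH1, TLR3 and EIF2AK2, the members with the motif shown above, had log2 fold changes of −0.16, −0.46 and −0.03 in shp16 against shCont and of 0.20, −0.06 and −0.30 in shp16+shATR against shp16, and none passed in the fit of all 9 libraries.

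In the relay to interferon, IRF3 was the only member called between shp16 and shCont. IRF3 (ENSG00000126456, chr19:50162826-50169132 as deposited, minus strand) is the transcription factor that TBK1 phosphorylates. It was at 96.2, 63.3 and 55.5 CPM in shCont, 46.1, 51.1 and 48.6 in shp16, and 51.0, 53.7 and 49.6 in shp16+shATR. All shCont libraries were above all libraries of the knockdown groups, and shCont replicate 1 was far above the rest. IRF3 fell in shp16 with a log2 fold change of −0.56 (0.677-fold, SE 0.172, 95% interval −0.94 to −0.19, adjusted p = 0.0483, edgeR). In that comparison 14.8% of all genes tested were called, 7.23% higher and 7.59% lower, so 1 member of 10 is near the share of all genes. The call lies at the edge of the threshold, as it held in 7 of 19 alternative settings with adjusted p-values from 0.00289 to 0.146, and the sign was negative in all of them. It was lost when shCont replicate 2, any shp16 library or any shp16+shATR library was left out. Without shCont replicate 1 the log2 fold change was −0.30 (SE 0.0811, adjusted p = 0.0188). Against shCont, shp16+shATR had a log2 fold change of −0.48 (adjusted p = 0.0642), which was −0.21 (adjusted p = 0.0624) without that library and −0.63 (adjusted p = 0.00884) without shCont replicate 3.

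IRF3 shares 310 of 6307 bases with BCL2L12 on the opposite strand. BCL2L12 was at 60.9, 40.5 and 32.3 CPM in shCont, 31.2, 37.9 and 38.8 in shp16, and 35.1, 35.5 and 32.9 in shp16+shATR. Its highest library was also shCont replicate 1, and it was called in no comparison. Whether the counting used strand is not given in the sources used here.

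TBK1, the kinase that joins the STING, MAVS and TLR3 branches, was called in no comparison of all 9 libraries. It was at 63.0, 75.4 and 82.2 CPM in shCont, 71.9, 76.3 and 74.3 in shp16, and 71.7, 68.7 and 66.1 in shp16+shATR. The shp16 libraries lay within the range of shCont, and the shp16+shATR libraries were all below those of shp16 in CPM but overlapped them in FPKM. The log2 fold change was 0.01 (95% interval −0.23 to 0.26, adjusted p = 0.957) for shp16 against shCont and −0.11 (95% interval −0.36 to 0.14, adjusted p = 0.664) for shp16+shATR against shp16. Neither interval reaches 0.40 in size, so larger differences of this gene in either direction lie outside them.

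Over all 10 members, shp16 against shCont had 1 call, shp16+shATR against shp16 none, and shp16+shATR against shCont 1. Adding the ATR hairpin to shp16 cells called 6.22% of all genes tested, 2.73% higher and 3.49% lower. In that comparison the fits of all 9 libraries with edgeR, DESeq2 and limma called none of the members. With edgeR on only the groups compared, EIF2AK2 was called. In the fit of all 9 libraries 2 members, TMEM173 and EIF2AK2, had an unadjusted p under 0.05 with edgeR. The members' median log2 fold change was 0.01, beside 0.002 for all genes tested. The libraries did not overlap for 3 members between shp16 and shCont (TMEM173 above, MB21D1 and IRF3 below), where this held for 33.6% of all genes, 16.8% above and 16.8% below. They did not overlap for 6 members between shp16+shATR and shp16 (TMEM173, DDX58, IFIH1 and MAVS above, TBK1 and EIF2AK2 below), where it held for 37.7% of all genes, 17.6% above and 20.1% below. For 6 members they did not overlap between shp16+shATR and shCont (TMEM173, DDX58 and MAVS above, MB21D1, IRF3 and EIF2AK2 below), where it held for 41.5%, 20% above and 21.5% below.
In the fit without shCont replicate 1 the counts of called members were 4, 1 and 6, beside 25.9%, 19.9% and 33.3% of the 16184 genes then tested. The 4 were TMEM173, TREX1, IRF3 and TLR3. The single call of shp16+shATR against shp16 was EIF2AK2, and the 6 against shCont were TMEM173, MAVS and TREX1, which were higher, and TBK1 (−0.20, adjusted p = 0.0436), TLR3 and EIF2AK2, which were lower.

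**Figure D3:**
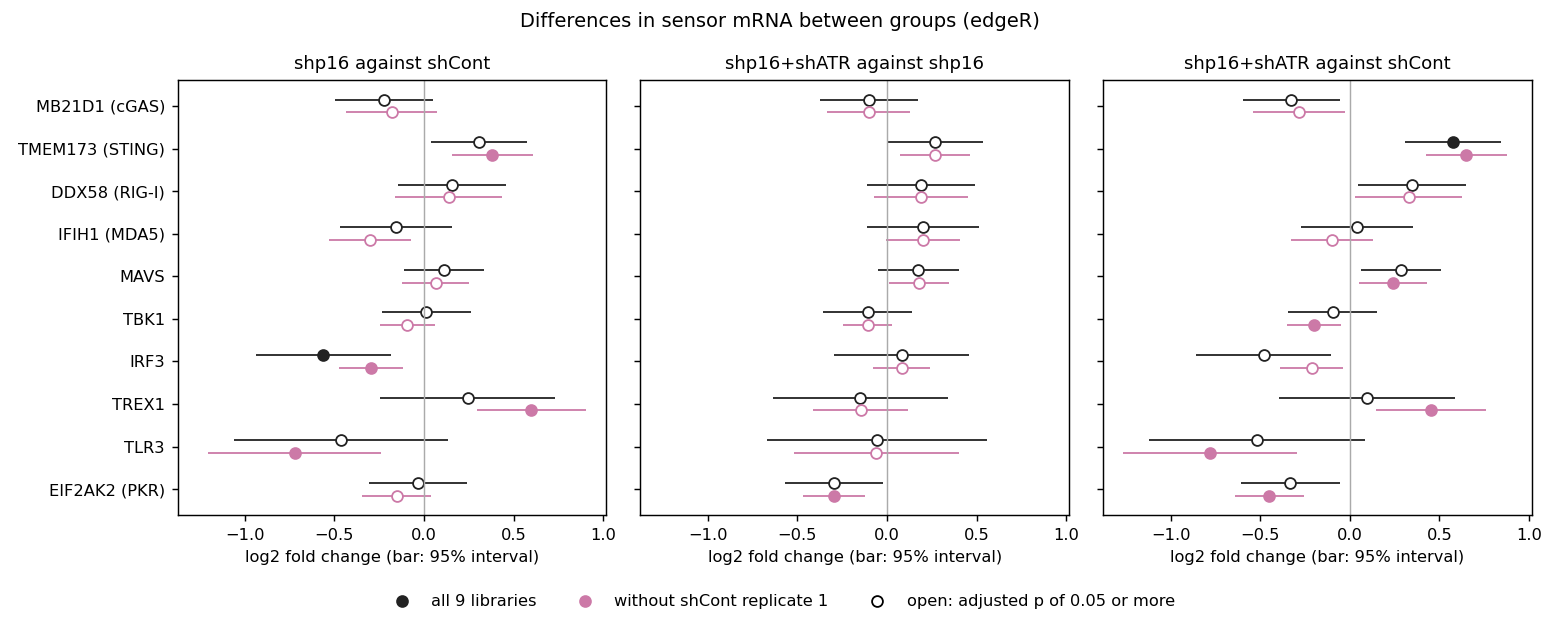
log2 fold changes of the 10 genes in the 3 comparisons from edgeR's fit, with 95% intervals, for all 9 libraries (black) and without shCont replicate 1 (pink); filled points have an adjusted p under 0.05. With all libraries only IRF3 (−0.56, shp16 against shCont) and TMEM173 (0.57, shp16+shATR against shCont) are filled. In the comparisons against shCont, the pink points of TREX1 and TLR3 lie farther from 0 than the black ones.

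The genes whose profile over the 9 libraries was closest to that of a called member were named by the root mean square distance of centred log2 CPM, among 10736 genes. For TMEM173, whose own profile had a root mean square of 0.257, they were CMTM3 (distance 0.0926) and the pseudogene MORF4L1P1 (0.0931), whose reads may be shared with its parent gene. For IRF3, with 0.304, they were AUP1 (0.0688) and PIH1D1 (0.0709). shCont replicate 1, which entered the distance, was the highest library of IRF3 and of both these genes. AUP1 was at 233 CPM there and at 148 and 152 in the other shCont libraries. PIH1D1 was at 66.9 CPM there and at 43.2 and 39.9 in the others.

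Of the pathway around the sensors, 85 further genes were listed in 8 groups and 73 were tested. The p16 hairpin alone gave 7 higher and 2 lower calls among them against shCont, the ATR hairpin 2 higher and 5 lower calls against shp16, and both hairpins 12 higher and 7 lower calls against shCont. These 9, 7 and 19 calls of 73 stand beside 14.8%, 6.22% and 23.6% of all genes tested. Without shCont replicate 1, when 75 could be tested, 15 were called higher and 8 lower in the first of these comparisons, 9 and 11 in the second, and 16 and 13 in the last, beside 25.9%, 19.9% and 33.3% of all genes then tested. The median log2 fold change of the 73 was 0.08, 0.004 and −0.006 in the 3 comparisons, beside −0.02, 0.002 and −0.02 for all genes tested.

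Among 7 tested DNA sensing genes other than the members, AIM2, which assembles the DNA inflammasome, was lower. It was at 1.90, 2.36 and 2.45 CPM in shCont, 0.519, 0.285 and 0.877 in shp16, and 0.692, 0.995 and 0.717 in shp16+shATR, with a log2 fold change of −1.99 (SE 0.376, adjusted p = 0.00472) for shp16 and −1.46 (adjusted p = 0.0124) for shp16+shATR against shCont. These are 6 to 49 counts per library. G3BP1, a stress granule protein that helps cGAS bind DNA, was lower in shp16+shATR than in shp16 (−0.51, adjusted p = 0.0287) and than in shCont (−0.53, adjusted p = 0.00764), and was at 264 to 283 CPM in shp16+shATR and at 341 to 439 in the other groups.

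Among 10 tested RNA sensing genes, OAS3, a maker of the 2-5A messenger that turns on RNase L, was at 72.4, 87.1 and 97.8 CPM in shCont, 148, 111 and 104 in shp16, and 66.3, 69.1 and 74.2 in shp16+shATR. It was higher in shp16 than in shCont (log2 fold change 0.50, adjusted p = 0.0453) and lower in shp16+shATR than in shp16 (−0.80, adjusted p = 0.0107), and the same shp16 libraries enter both values. PRKRA, an activator of PKR, rose in shp16 against shCont by 0.32 (adjusted p = 0.0418). Against shCont, where 10.9% of all genes tested were called higher and 12.7% lower, 5 of the 10 were higher in shp16+shATR and none lower, among them DDX60 (0.72, adjusted p = 0.0155), ZC3HAV1 (0.49, adjusted p = 0.0424, and 0.29 without shCont replicate 1) and OAS1 (0.49, adjusted p = 0.0408). DDX60 is a helicase linked to RIG-I, ZC3HAV1 an antiviral zinc finger protein, and OAS1 a relative of OAS3. In the fit without shCont replicate 1 the list had 5 higher and 2 lower calls, the latter being OAS3 (−0.41, adjusted p = 0.0318) and TRIM25 (−0.46, adjusted p = 0.000581), the ubiquitin ligase that activates RIG-I.

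cGAMP can also move between cells, and 2 of 12 listed regulators of cGAMP and STING were higher in shp16 than in either other group. SLC19A1, a carrier that imports cGAMP, was at 20.4, 18.8 and 17.7 CPM in shCont, 32.2, 25.1 and 29.8 in shp16, and 17.6, 16.4 and 17.8 in shp16+shATR. LRRC8A, a subunit of a volume-regulated channel that passes cGAMP, was at 31.6 in each shCont library, at 51.9, 48.6 and 53.3 in shp16, and at 34.6, 38.2 and 36.4 in shp16+shATR. In both genes all shp16 libraries were above all others. SLC19A1 rose by 0.61 (adjusted p = 0.00643) and LRRC8A by 0.70 (adjusted p = 0.000651) on the log2 scale in shp16 against shCont. They were lower in shp16+shATR than in shp16, at −0.74 (adjusted p = 0.00512) and −0.49 (adjusted p = 0.0122). The same shp16 libraries enter both comparisons, so a high value in them favours both calls. Of all genes tested, 7.23% were called higher in the first comparison and 3.49% lower in the other.

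Of 11 genes that clear self nucleic acids, RNASEH2A, the catalytic subunit of RNase H2, was lower with the ATR hairpin. It was at 142, 94.2 and 91.8 CPM in shCont, 97.9, 79.9 and 80.5 in shp16, and 52.8, 49.9 and 55.7 in shp16+shATR. The shp16+shATR libraries were below all others, with −0.71 against shp16 (SE 0.165, adjusted p = 0.0279) and −1.05 against shCont (adjusted p = 0.000912), which was −0.82 without shCont replicate 1. SAMHD1, which breaks down deoxynucleotides, rose in shp16 against shCont by 0.50 (adjusted p = 0.0288). Against shCont, PNPT1 of the mitochondrial RNA degradosome was lower in shp16+shATR (−0.48, adjusted p = 0.00799) and SKIV2L, an exosome helicase, was higher (0.28, adjusted p = 0.0465).

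In the Toll-like receptor list, with 8 genes tested, the kinase IRAK1 was at 296, 243 and 232 CPM in shCont, 463, 355 and 356 in shp16, and 492, 484 and 539.9 in shp16+shATR. It was higher than in shCont by 0.61 (adjusted p = 0.0131) in shp16 and by 0.97 (adjusted p = 0.000475) in shp16+shATR. TICAM1, the adaptor that TLR3 uses, and the kinase IRAK4 were lower in shp16+shATR than in shCont, with log2 fold changes of −0.67 (adjusted p = 0.0148, and −0.44 without shCont replicate 1) and −0.37 (adjusted p = 0.0258). Among 13 relay genes, 1 was called, IRF7, a factor related to IRF3, which was higher in shp16+shATR than in shCont by 0.74 (adjusted p = 0.00922). In that comparison 23.6% of all genes tested were called. Of the 13 relay genes 10 had a negative sign there, beside 8158 of all 15776 genes tested. The median log2 fold change of the 13 was −0.08, beside −0.02 for all genes tested. Without shCont replicate 1, 7 of the 13 were negative and their median was −0.04. Beside EIF2AK2, 6 genes of eIF2alpha phosphorylation were tested, and PPP1R15A, the stress-induced phosphatase subunit GADD34, was lower than in shCont in shp16 (−0.80, adjusted p = 0.00575) and in shp16+shATR (−0.94, adjusted p = 0.00134).

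**Figure D4:**
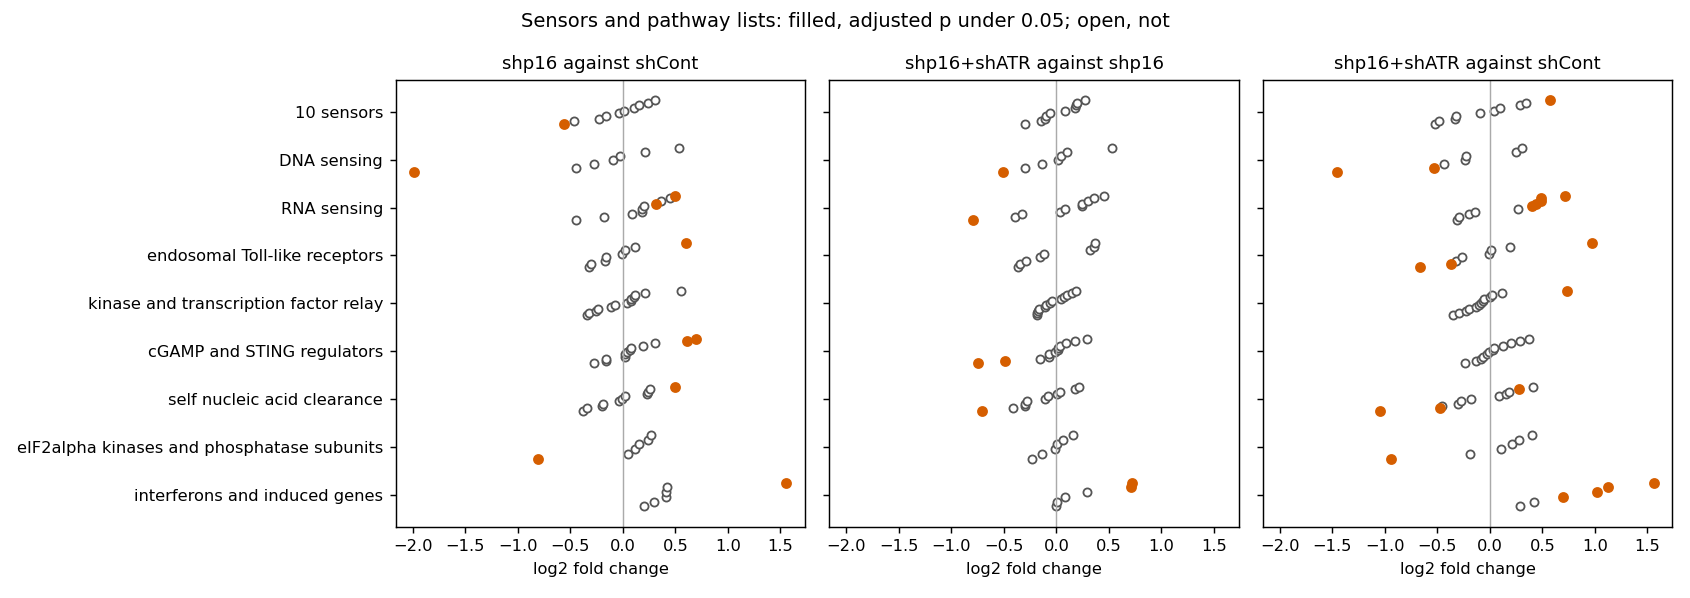
log2 fold change of every tested gene of the 10 sensors and the 8 pathway lists in the 3 comparisons, with 1 point per gene, filled where the adjusted p is under 0.05. Most points are open and lie within 0.5 of 0, AIM2 is the lowest at −1.99, and the interferon-induced list reaches 1.56 through MX1.

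The outputs of the pathway were read from interferons and the genes they induce. IFNB1, IFNA1, IFNL1, IFNL2 and IFNL3 had 0 counts in every library. A count of 0 in the 62203024 counts of shCont, 61080278 of shp16 and 59947169 of shp16+shATR allows up to 0.0482, 0.0491 and 0.05 CPM, for counting error only. The chemokine genes CXCL10 and CCL5, common readouts of STING and RIG-I signalling, had 1, 2 and 4 counts and 8, 21 and 46 counts in the 3 groups and did not pass the filter. In the fit without shCont replicate 1, CCL5 passed it and was higher in shp16+shATR than in shCont (log2 fold change 1.85, adjusted p = 0.0436), on 8 counts in shCont.

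Of 6 interferon-induced genes that could be tested, 4 were higher in shp16+shATR than in shCont, where 10.9% of all genes tested were called higher. MX1, an antiviral GTPase, was at 12.9 CPM in each shCont library, at 43.3, 34.8 and 36.0 in shp16, and at 37.6, 33.5 and 43.3 in shp16+shATR. It rose 2.94-fold in shp16 (log2 fold change 1.56, SE 0.132, adjusted p = 1.97e-05) and 2.95-fold in shp16+shATR (1.56, adjusted p = 1.29e-05) against shCont, and the 2 groups with the p16 hairpin overlapped. IFIT3, which helps block foreign RNA, was at 19.4, 19.7 and 19.2 CPM in shCont, 21.9, 26.4 and 23.2 in shp16, and 38.4, 38.6 and 40.8 in shp16+shATR. It was higher in shp16+shATR than in shp16 by 0.72 (SE 0.106, adjusted p = 0.00306), and its relative IFIT2 by 0.71 (SE 0.149, adjusted p = 0.0171).
IFIT1 was at 5.43 to 6.29 CPM in shCont, 7.75 to 8.06 in shp16 and 8.59 to 10.9 in shp16+shATR, and passed only between shp16+shATR and shCont (0.70, adjusted p = 0.00479). ISG15, a ubiquitin-like modifier, was at 32.0, 17.6 and 15.2 CPM in shCont, 29.6, 30.4 and 27.0 in shp16, and 27.9, 31.2 and 27.6 in shp16+shATR, so that shCont replicate 1 was the highest library of all. Its log2 fold change against shCont was 0.42 in shp16 (adjusted p = 0.232) and 0.42 in shp16+shATR (adjusted p = 0.203), and without shCont replicate 1 0.82 in both (adjusted p = 0.000190 and 0.000105). The list had 1 higher call for shp16 over shCont, 2 for shp16+shATR over shp16 and 4 for shp16+shATR over shCont, beside 7.23%, 2.73% and 10.9% of all genes tested, and none lower. Leaving out shCont replicate 1, of 8 genes then tested 3, 2 and 6 were called higher and none lower. In either direction, 25.9%, 19.9% and 33.3% of all genes then tested were called. IFI44, with log2 fold changes of 0.11, 0.09 and 0.19 in that fit, was called in no comparison. Nor was RSAD2, with −1.77, 1.90 and 0.12, on 7 to 26 counts per group.

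**Figure D5:**
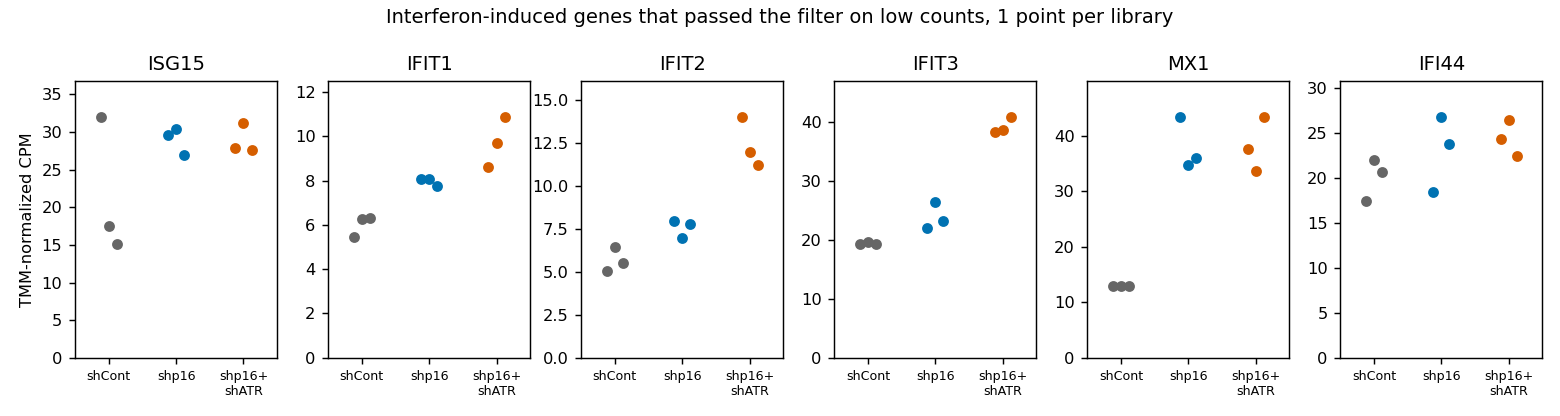
TMM-normalized CPM of the 6 interferon-induced genes that passed the filter on low counts, with 1 point per library (replicates 1 to 3, or a to c, from left to right). MX1 is at 12.9 CPM in all shCont libraries and at 33.5 or more elsewhere, IFIT2 and IFIT3 are highest in shp16+shATR, and ISG15 in shCont replicate 1 lies with the knockdown groups.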

How the data were processed

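Bulk RNA was sequenced from 9 libraries of SKMEL28 cells, 3 per group. Raw read counts of 48162 genes were deposited by the authors together with FPKM, which were checked to equal counts scaled by gene length and library total (largest relative difference 4.22e-07). The submitters' processing notes name STAR 2.6.1, GRCh38 and DESeq2 2, and strand use in counting is not given in the sources used here. Among the count columns 3 share 1 name, so the shp16+shATR libraries are called a, b and c, and by their FPKM they are replicates 1, 2 and 3. Total counts were 17314662 to 23588174 per library, and intervals and floors (3 counts) cover counting error only. No pair of libraries agreed within sampling noise.

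In R 4.3.3, edgeR 4.0.16 was used to filter the counts (filterByExpr), scale them (TMM) and run its quasi-likelihood test in 1 fit of all 9 libraries, with 1 coefficient per group and Benjamini-Hochberg adjustment over all 15776 genes tested (threshold 0.05). The code was tested on simulated data. Alternatives were DESeq2 1.42.0, upper-quartile or library size scaling, no filter or a minimum of 10 counts, only the groups compared, a replicate block, limma 3.58.1 on log2 FPKM with 1 or 0.1 added, a threshold of 0.01, and each library left out.

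The members and pathway lists were chosen with earlier results of these data known. Named genes were the members, CDKN2A and ATR, genes overlapping a member, per list and comparison up to 3 called genes with the largest log2 fold change, the 2 genes closest in profile to each called member (mean CPM of at least 5), set output genes (ISG15, IFIT1, CXCL10, CCL5 and IFNB1) and markers. Other interferon genes at 0 counts are named with their list. TLR9, whose symbol stands for more than 1 gene, and PECAM1, which was not matched, were left out.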

Additional observations from a re-analysis of the deposited data

How the results depend on the processing

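Of 570 log2 fold changes of members under the 19 alternatives, 529 kept their direction and their side of the threshold, 17 passed it newly, 12 no longer passed it, all of them IRF3 in shp16 against shCont, and 12 changed sign. TMEM173 in shp16+shATR against shCont passed in 19 of 19 (0.50 to 0.65, adjusted p from 0.000445 to 0.0354). In shp16 against shCont, 0 members were called with only the groups compared, with limma on log2 FPKM plus 1 or plus 0.1, and at an adjusted p of 0.01, against 1 in the fit of all libraries, and 0 to 4 when a library was left out. In shp16+shATR against shp16, 1 (EIF2AK2) was called with only the groups compared, and 0 to 1 without a library. In shp16+shATR against shCont, 2 were called with DESeq2, with at least 10 counts and with limma (TMEM173 and MAVS) and with no filter (TMEM173 and IRF3), and 1 to 6 without a library. The highest of each range is the fit without shCont replicate 1, in which 16184 genes were tested. The cause was not tested.

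All sign changes were in values whose 95% interval with all libraries held 0. In shp16 against shCont TBK1 was −0.043 with upper-quartile scaling, and with a library left out it ranged from −0.093 to 0.10, EIF2AK2 from −0.15 to 0.061 and ATR from −0.12 to 0.33. TLR3 ranged from −0.23 to 0.033 in shp16+shATR against shp16. In shp16+shATR against shCont IFIH1 ranged from −0.10 to 0.13 and TREX1 from −0.12 to 0.45. Other scalings moved the median of all genes to at most −0.07 on the log2 scale.

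Replicate numbers did not pair the libraries, as deviations of same-numbered libraries correlated between −0.15 and 0.17. With the replicate block, edgeR and limma each called 0, 0 and 1 member in the 3 comparisons, with the numbers of libraries a, b and c taken from their FPKM. TLR3, at 44 to 91 counts per library, is the member that depth limits most.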
